A study of Mus musculus with 2 samples.

Results

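The genes described here encode receptors and ligands of the PDGF, FGF, MET and AXL pathways: Pdgfra, Pdgfrb, Fgfr1, Met and Axl for the receptors, and Pdgfa, Pdgfb, Pdgfc, Fgf2 and Gas6 for the ligands. They were taken by gene symbol, 10 of the 54532 genes in the deposited table, and each symbol matched 1 row. RNA was sequenced from CT26, a mouse colon carcinoma line, after lentivirus for mouse Oct4 and human SOX2 (the Oct4 and SOX2 library), and after lentivirus with the empty expression vector (the empty-vector library, genotype given as wild type). Both cultures grew for 4 days in RPMI 1640 with 10% FBS, and each group held 1 library. Every difference below is thus one between 2 libraries, and no replicate stands behind it. The labels do not say whether either culture was a clone or a mixed population.

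Receptor tyrosine kinases span the membrane, bind a growth factor outside the cell and phosphorylate each other inside it, which recruits adaptors and switches on the RAS-ERK, PI3K-AKT and PLC gamma routes. PDGF receptors are known from fibroblasts and the mural cells of vessels, FGF receptors need heparan sulphate chains as coreceptors, MET answers hepatocyte growth factor, and AXL is a TAM receptor bound by GAS6. In colon tissue MET belongs mainly to epithelium, and PDGF receptors mainly to stroma.

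The library totals were 31521115 recovered reads with Oct4 and SOX2 and 32262408 with the empty vector. Levels are in FPKM, the fragments on a gene divided by its length in kilobases and by a measure of each library's depth, and reads were recovered from them. The depth implied by the FPKM was 1.011 times the recovered total with Oct4 and SOX2 and 0.989 times it with the empty vector. The FPKM thus carry a scaling that differs from these totals. Pou5f1, the gene for Oct4, had 12406 reads with Oct4 and SOX2 and 0 with the empty vector, and mouse Sox2 had 1525 with Oct4 and SOX2 and 929 with the empty vector. Reads of the introduced human SOX2 may fall in part on mouse Sox2. Among genes with 1 to 10 reads an even number was found for 63.3% with Oct4 and SOX2 and 62.7% with the empty vector. Among genes with more than 10 and up to 100 reads the share was 50.2% with Oct4 and SOX2 and 50.6% with the empty vector. The excess of even numbers was thus seen at low read numbers only. Genes with 2 reads numbered 2277 with Oct4 and SOX2 and 2223 with the empty vector, while genes with 1 read numbered 1121 with Oct4 and SOX2 and 1170 with the empty vector. Reads of a pair may thus each have been counted, so a second interval from reads halved is given for the main results. All intervals are 95% and cover counting error only. In bulk RNA, fewer cells of a type and less RNA per cell cannot be told apart.

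Of the 10 genes, 7 reached 1 FPKM and did so in both libraries, and Pdgfb, Fgf2 and Gas6 stayed below it in both. The receptor Pdgfrb was the member at least 2-fold lower with Oct4 and SOX2, and no member was at least 2-fold higher, on the scale of FPKM + 1. Over all 12401 genes with 1 FPKM in at least 1 library, 1.85% were at least 2-fold lower and 2.42% at least 2-fold higher. The members are all protein-coding, and of 10276 measured protein-coding genes 110 were at least 2-fold lower and 143 at least 2-fold higher. The median log2 ratio of the 7 measured members was -0.06, and that of all measured genes -0.01. Met came closest to 2-fold among the others, on the higher side.

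**Figure D1:**
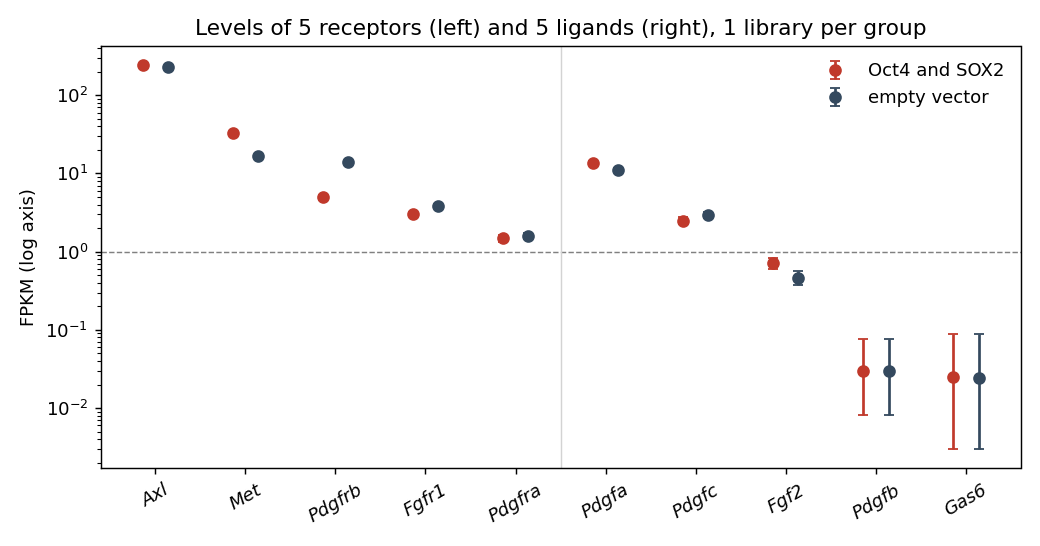
FPKM on a log axis for the 5 receptors and 5 ligands, in the Oct4 and SOX2 library (red) and the empty-vector library (dark), 1 library each; bars are exact 95% Poisson intervals of the reads, and the dashed line marks 1 FPKM. Axl is at 240.0 FPKM with Oct4 and SOX2 and 226 FPKM with the empty vector, Met and Pdgfrb separate in opposite directions, and Pdgfb and Gas6 rest on 4 and 2 reads in each library.

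Pdgfrb encodes PDGF receptor beta, the receptor for PDGF-BB and PDGF-DD and a known marker of pericytes and fibroblasts. Its level was 4.93 FPKM from 860 reads in the Oct4 and SOX2 library (counting interval 4.60 to 5.27) and 14.1 FPKM from 2458 reads in the empty-vector library (13.5 to 14.6). The library with Oct4 and SOX2 was the low one, and the intervals did not overlap. In plain FPKM it was 2.85-fold lower with Oct4 and SOX2 (2.64 to 3.09, or 2.55 to 3.19 from reads halved). Among the 12401 measured genes it stood at place 7923 by level with Oct4 and SOX2 and at place 4107 with the empty vector, and its log2 ratio of -1.35 on the FPKM + 1 scale was the 224th largest in size. With a pseudocount of 5 in place of 1 that ratio was -0.94, so it no longer passed 2-fold. The gene (ENSMUSG00000024620) lies on chromosome 18 from 61045150 to 61085061 in GRCm38, on the plus strand, with 23 exons and 3297 coding bases in its principal transcript. Its measured protein-coding neighbours were within 2-fold. Tcof1, a nucleolar factor gene, was at 34.4 FPKM with Oct4 and SOX2 and 40.2 FPKM with the empty vector. Hmgxb3, an HMG-box gene on the other side, was at 11.1 FPKM in both libraries.

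Pdgfra encodes PDGF receptor alpha, which binds the PDGF-A, PDGF-B and PDGF-C chains. It was at 1.48 FPKM (472 reads, counting interval 1.35 to 1.62) with Oct4 and SOX2 and at 1.59 FPKM (509 reads, 1.46 to 1.74) with the empty vector. The level intervals overlapped, and the plain ratio was 0.929 (0.818 to 1.05). Per length, Pdgfrb thus exceeded Pdgfra 3.33 times in the Oct4 and SOX2 library and 8.84 times in the empty-vector library. Pdgfrb made up 76.9% of the summed PDGF receptor FPKM with Oct4 and SOX2, and 89.8% with the empty vector. Set against Pdgfra, Pdgfrb reads were 2.65-fold lower with Oct4 and SOX2 (exact conditional interval 2.28 to 3.08, or 2.14 to 3.29 from reads halved), a ratio in which the scaling of the libraries cancels.

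Since PDGF receptors mark stroma, the marker lists were read beside them. Of 16 fibroblast and pericyte markers 4 reached 1 FPKM, namely Col1a1, Col1a2, Col3a1 and Vim. Their list summed to 1320 FPKM with Oct4 and SOX2 and 853 FPKM with the empty vector, mostly Vim, for vimentin, at 966 FPKM with Oct4 and SOX2 and 599 FPKM with the empty vector. Col1a2, a type I collagen chain, was at 306 FPKM with Oct4 and SOX2 and 185 FPKM with the empty vector. Col1a1, the other type I collagen chain, went the other way from Col1a2, at 40.0 FPKM with Oct4 and SOX2 and 62.1 FPKM with the empty vector. Of the 4 measured markers 3 had a log2 ratio above 0 and Col1a1, at -0.62, lay below it as Pdgfrb did, and the list's median was 0.47. Des, for desmin, a muscle and pericyte filament, was not among the genes named by rule. It was below 1 FPKM, with 18 reads with Oct4 and SOX2 and 45 with the empty vector. Dcn, for decorin, also below 1 FPKM and named after its value was seen, went the same way as Des, but its ratio interval spans 1. Some other markers below 1 FPKM went the opposite way to Des. Genes of the list with 0 reads numbered 4 with Oct4 and SOX2 and 6 with the empty vector, 4 of them in both, so some had reads with Oct4 and SOX2 alone. The pericyte genes Rgs5, Abcc9 and Kcnj8 and the fibroblast gene Lum had 0 reads in both libraries. The part of such markers in the Pdgfrb difference was not tested. Of 12 leukocyte and endothelial markers Cd68 alone reached 1 FPKM, at 4.27 FPKM with Oct4 and SOX2 and 5.53 FPKM with the empty vector. That list summed to 5.49 FPKM with Oct4 and SOX2 and 6.76 FPKM with the empty vector, and 5 of its genes had 0 reads in both.

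Most epithelial markers of the labelled colon cancer line were at or near 0. Of 14 epithelial and colon markers, Krt20 and Krt18 reached 1 FPKM. Krt20, a keratin of differentiated colon epithelium, was at 28.3 FPKM with Oct4 and SOX2 and 14.9 FPKM with the empty vector. Krt18, a simple-epithelial keratin, was at 11.3 FPKM with Oct4 and SOX2 and 15.2 FPKM with the empty vector. Cdh1 and Cdx1 had 0 reads in both libraries, and Epcam had 2 reads with Oct4 and SOX2 and 1 with the empty vector. The next genes were named after their values were seen. Krt8 had 2 reads with Oct4 and SOX2 and 21 with the empty vector, a plain ratio of 0.0954 (0.0108 to 0.390). Cdx2 had 6 with Oct4 and SOX2 and 14 with the empty vector, and its ratio interval spans 1. Lgr5 had 4 reads with Oct4 and SOX2 and 0 with the empty vector, the other way in number, but its lower ratio limit of 0.661 lies below 1. The list summed to 39.9 FPKM with Oct4 and SOX2 and 31.0 FPKM with the empty vector, nearly all of it Krt20 and Krt18. Of these, Krt20 alone was higher with Oct4 and SOX2.

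Met encodes the receptor for hepatocyte growth factor, a driver of epithelial motility and invasive growth. Its level was 33.0 FPKM (8074 reads, counting interval 32.3 to 33.7) in the Oct4 and SOX2 library and 16.9 FPKM (4133 reads, 16.4 to 17.4) in the empty-vector library. The library with Oct4 and SOX2 was the high one, and the intervals did not overlap. In plain FPKM Met was 1.96-fold higher with Oct4 and SOX2 (1.88 to 2.03, or 1.86 to 2.06 from reads halved), and its log2 ratio on the FPKM + 1 scale was 0.93, short of the 2-fold rule. By level it stood at place 1648 of the measured genes with Oct4 and SOX2, against place 3456 with the empty vector. The Met to Pdgfrb level ratio was 6.70 with Oct4 and SOX2 and 1.20 with the empty vector. Met (ENSMUSG00000009376) spans chromosome 6 from 17463800 to 17573980 on the plus strand, with 22 exons and 4137 coding bases in its principal transcript. Hgf, for its ligand, was at 0.0306 FPKM (7 reads) with Oct4 and SOX2 and 0.0436 FPKM (10 reads) with the empty vector, and the ratio interval of 0.227 to 2.04 spans 1.

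Axl encodes a TAM receptor tyrosine kinase tied to mesenchymal-like tumour states. It was at 240.0 FPKM (38485 reads) with Oct4 and SOX2 and at 226 FPKM (36347 reads) with the empty vector. The plain ratio was 1.06 (1.05 to 1.08), so the difference exceeded counting error but was small, and its size moved with the scaling of the libraries. Axl was the most expressed of 57 receptor tyrosine kinase genes in both libraries, and held 44.9% of their summed FPKM with Oct4 and SOX2 and 42.2% with the empty vector. Met was at place 4 in that order with Oct4 and SOX2 and at place 5 with the empty vector, and Pdgfrb was at place 13 with Oct4 and SOX2 and at place 6 with the empty vector. Fgfr1 was at place 15 and Pdgfra at place 18 in both. Axl lay 7.27 times above Met in FPKM with Oct4 and SOX2 and 13.4 times above it with the empty vector. The gene (ENSMUSG00000002602) lies on chromosome 7 from 25757273 to 25788705 on the minus strand, with 20 exons in its principal transcript.

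Gas6, the vitamin K dependent ligand of AXL, was next to absent. It had 2 reads in each library, 0.0246 FPKM in both, below the level of 3 reads, which is 0.0370 FPKM with Oct4 and SOX2 and 0.0369 FPKM with the empty vector. A difference was not detectable at this depth. The related TAM genes came from a list of 9 receptors, ligands and vitamin K enzymes, of which 7 were measured, 1 at least 2-fold higher and 1 at least 2-fold lower. Of all 12401 measured genes 2.42% were at least 2-fold higher and 1.85% at least 2-fold lower, and the list was not tested against these shares. The higher gene was Pros1, for protein S, a ligand of TYRO3 and MERTK. Pros1 was at 10.9 FPKM (1423 reads) with Oct4 and SOX2 and 2.29 FPKM (299 reads) with the empty vector, 4.77-fold higher (4.21 to 5.42, or 3.99 to 5.73 from reads halved). Its receptor genes were within 2-fold. Tyro3 was at 5.59 FPKM with Oct4 and SOX2 and 5.72 FPKM with the empty vector, and Mertk at 0.934 FPKM with Oct4 and SOX2 and 1.30 FPKM with the empty vector. The lower gene, Tulp1, a tubby-like protein gene reported as a TAM ligand, was at 0.212 FPKM (45 reads) with Oct4 and SOX2 and 1.48 FPKM (314 reads) with the empty vector. It reached 1 FPKM in the empty-vector library alone, its log2 ratio of -1.03 on the FPKM + 1 scale lay just past 2-fold, and no gene of the list was lower with a pseudocount of 5 or a filter of 5 FPKM. Among the vitamin K enzymes, the gamma-carboxylase gene Ggcx was at 11.4 FPKM with Oct4 and SOX2 and 13.0 FPKM with the empty vector, and was named here after its value was seen.

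**Figure D2:**
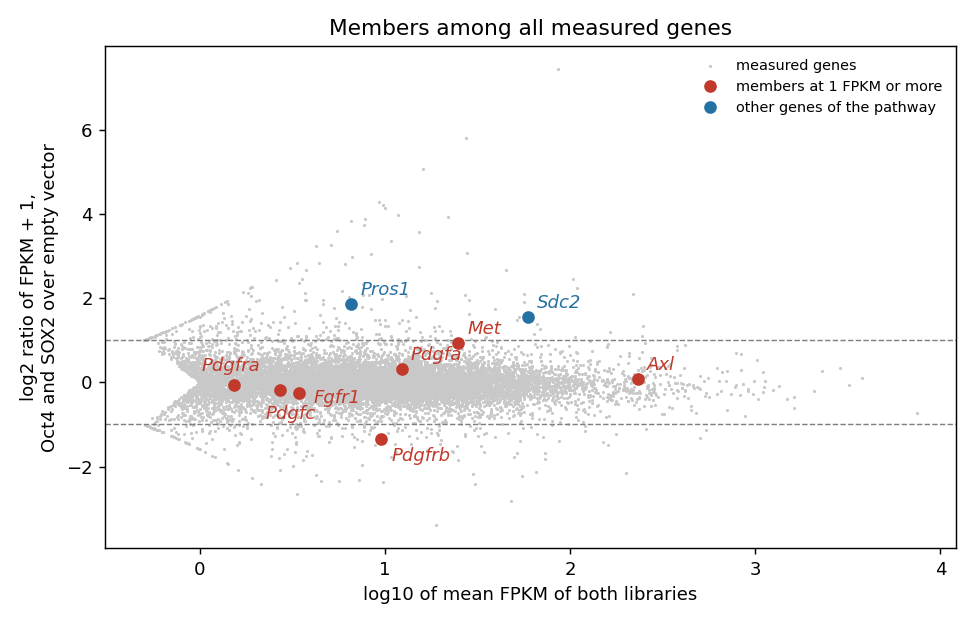
Each grey point is 1 of the 12401 measured genes; the x axis is log10 of the mean FPKM of both libraries, the y axis their log2 ratio on the FPKM + 1 scale, Oct4 and SOX2 over empty vector, and the dashed lines mark 2-fold. Pdgfrb (-1.35) lies below the lower line, Met (0.93) just under the upper one, the other members between them, and Pros1 (1.86) and Sdc2 (1.54) above.

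Pdgfa encodes the PDGF-A chain, which acts on PDGF receptor alpha, and was the main PDGF ligand transcript. It was at 13.8 FPKM (1368 reads, counting interval 13.05 to 14.5) with Oct4 and SOX2 and at 10.9 FPKM (1088 reads, 10.3 to 11.6) with the empty vector. The level intervals did not overlap, and the plain ratio was 1.26 (1.16 to 1.37, or 1.12 to 1.41 from reads halved). The antisense gene 6330403L08Rik shares 813 exonic bases with Pdgfa and had 725 reads with Oct4 and SOX2 and 518 with the empty vector. Whether reads kept their strand is not given in the sources used here, so reads of these genes cannot be told apart where they overlap.

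Pdgfc encodes PDGF-C, a latent chain that proteases such as tissue plasminogen activator release. It was at 2.49 FPKM (404 reads) with Oct4 and SOX2 and 2.96 FPKM (481 reads) with the empty vector, a plain ratio of 0.841 (0.735 to 0.962). From reads halved the interval was 0.694 to 1.02 and spanned 1. Pdgfb, for the chain that binds both PDGF receptors, had 4 reads in each library, 0.0302 FPKM with Oct4 and SOX2 and 0.0301 FPKM with the empty vector, and its ratio interval was 0.187 to 5.38. Pdgfd, the other ligand of PDGF receptor beta and no member, had 11 reads with Oct4 and SOX2 and 0 with the empty vector. With the empty vector set to a floor of 3 reads it was 3.67-fold higher, and the lower limit of the interval was 2.51, or 1.05 from reads halved. Pdgfa thus made up 84.0% of the summed PDGF ligand FPKM with Oct4 and SOX2 and 78.5% with the empty vector, and Pdgfc 15.2% with Oct4 and SOX2 and 21.3% with the empty vector. Pdgfb and Pdgfd together were under 1% in both libraries. Pdgfa (ENSMUSG00000025856) lies on chromosome 5 from 138976014 to 138997370, far from Pdgfra (ENSMUSG00000029231) at 75152292 to 75198215 on the same chromosome. Pdgfc (ENSMUSG00000028019) lies on chromosome 3 from 81036416 to 81214040, and Pdgfb (ENSMUSG00000000489) on chromosome 15 from 79995874 to 80014977.

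The FGF members were low. Fgfr1, for the FGF receptor of mesenchymal cells, was at 3.06 FPKM (962 reads, counting interval 2.87 to 3.26) with Oct4 and SOX2 and 3.81 FPKM (1200 reads, 3.59 to 4.03) with the empty vector. The level intervals did not overlap, and the plain ratio was 0.803 (0.737 to 0.875, or 0.711 to 0.907 from reads halved). Fgfr1 held 96.3% of the FPKM of the 4 FGF receptor genes with Oct4 and SOX2 and 97.7% with the empty vector. Fgfr2 had 4 reads with Oct4 and SOX2 and 0 with the empty vector, as did Fgfr3, and Fgfr4 had 10 in each. Splice forms of Fgfr1, which differ in ligand choice, are not resolved by a gene-level table. Fgfr1 (ENSMUSG00000031565) lies on chromosome 8 from 25513654 to 25575718, as does Gas6 (ENSMUSG00000031451) from 13465374 to 13494490.

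Fgf2 encodes basic FGF, a secreted growth factor of fibroblasts and stem cell cultures. It was at 0.708 FPKM (153 reads, counting interval 0.600 to 0.830) with Oct4 and SOX2 and 0.462 FPKM (100 reads, 0.376 to 0.562) with the empty vector. The level intervals did not overlap, and the plain ratio was 1.53 (1.18 to 1.99, or 1.06 to 2.24 from reads halved). The gene shares 640 exonic bases with Nudt6 on the opposite strand, and 207 of its 6927 windows of 50 transcript bases also occur in Gm43439, so part of its reads is uncertain. Fgf2 (ENSMUSG00000037225) lies on chromosome 3 from 37348346 to 37410108, with 3 exons and 462 coding bases in its principal transcript. Nudt6 itself had 67 reads with Oct4 and SOX2 and 70 with the empty vector.

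Of 21 other FGF ligand genes 3 were measured and none of those 3 passed 2-fold. Among all 12401 measured genes 4.27% passed it either way, so none among 3 is near that share. Fgf7, keratinocyte growth factor, was the most expressed FGF ligand, at 25.1 FPKM (2601 reads) with Oct4 and SOX2 and 34.1 FPKM (3535 reads) with the empty vector, 1.36-fold lower (1.29 to 1.43). Fgf10 was at 5.62 FPKM (824 reads) with Oct4 and SOX2 and 3.80 FPKM (558 reads) with the empty vector, 1.48-fold higher (1.33 to 1.65). Both ligands act through the epithelial splice form of FGFR2, whose gene had 4 reads with Oct4 and SOX2 and 0 with the empty vector. Fgf10 made up 17.5% of the FPKM of Fgf2, Fgf7, Fgf10 and Fgf17 with Oct4 and SOX2, and 9.59% with the empty vector.

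**Figure D3:**
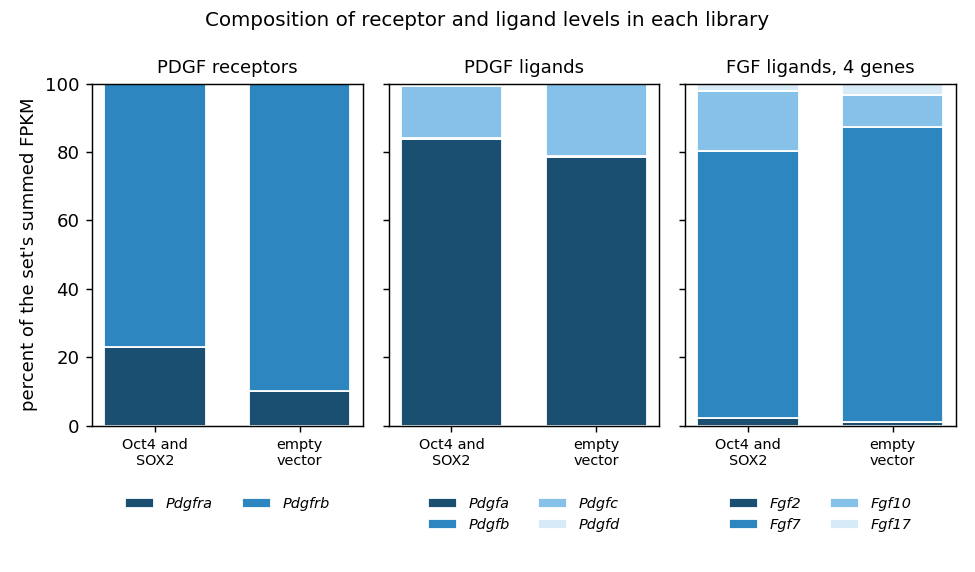
Percent of summed FPKM held by each gene in 3 sets, with the Oct4 and SOX2 library left of the empty-vector library, 1 library each. Pdgfra takes 23.1% of PDGF receptor FPKM with Oct4 and SOX2 and 10.2% with the empty vector, Pdgfa leads the PDGF ligands in both, and Fgf7 leads the 4 FGF ligands in both.

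A coreceptor gene, Sdc2, was higher with Oct4 and SOX2. Of 18 genes for other FGF receptors, adaptors and heparan sulphate proteoglycans 8 were measured, 1 was at least 2-fold higher and none lower, with a median log2 ratio of 0.17. Among all 12401 measured genes 2.42% were at least 2-fold higher and 1.85% at least 2-fold lower, and the list was not tested against these shares. Sdc2, for syndecan-2, a cell-surface heparan sulphate proteoglycan, was at 88.4 FPKM (9936 reads) with Oct4 and SOX2 and 29.7 FPKM (3343 reads) with the empty vector. It was 2.98-fold higher in plain FPKM (2.86 to 3.10, or 2.82 to 3.15 from reads halved). Gm32618 shares 69 of its 3478 transcript windows. Sdc4, syndecan-4, was at 63.4 FPKM with Oct4 and SOX2 and 36.4 FPKM with the empty vector, and Gpc1, glypican-1, at 39.2 FPKM with Oct4 and SOX2 and 58.8 FPKM with the empty vector. Both were named after their values were seen, and both were within 2-fold.

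Other genes of the pathways were set beside the 4.27% of all 12401 measured genes that were at least 2-fold apart either way. That share includes noncoding genes, while the measured genes of these lists are protein-coding. Of 10276 measured protein-coding genes 143 were at least 2-fold higher and 110 at least 2-fold lower, a smaller share. No list was tested against that share. In the PDGF list, 6 of 12 genes were measured and 1 was lower, the macrophage growth factor gene Csf1, at 78.9 FPKM with Oct4 and SOX2 and 164 FPKM with the empty vector (2.07-fold lower, 2.03 to 2.12). In the MET and RON list, 3 of 13 were measured and none of them passed 2-fold. The most expressed were Plxnb2, a plexin that can associate with MET, at 98.6 FPKM with Oct4 and SOX2 and 88.9 FPKM with the empty vector, and Cd44. That gene, for a hyaluronan receptor and MET coreceptor, was at 60.2 FPKM with Oct4 and SOX2 and 50.5 FPKM with the empty vector. All 33 shared adaptors and effectors were measured and lay within 2-fold, from -0.50 to 0.63 in log2 ratio, with a median of -0.03. None past 2-fold among 33 is near the share over all measured genes. Among them Akt1 was at 91.8 FPKM with Oct4 and SOX2 and 81.6 FPKM with the empty vector, and Mapk3, for ERK1, at 86.6 FPKM with Oct4 and SOX2 and 86.2 FPKM with the empty vector. Of 21 negative regulators and sheddases 16 were measured and 1 was higher, Socs3, a cytokine-signalling inhibitor gene. It was at 13.1 FPKM with Oct4 and SOX2 and 5.87 FPKM with the empty vector, 2.24-fold higher (2.02 to 2.48), and from reads halved the lower limit was 1.94.

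Over all measured genes 2.42% were at least 2-fold higher and 1.85% at least 2-fold lower. The list of 18 genes that respond to FGF and ERK signals had 16 measured, 2 at least 2-fold higher and none lower, with a median of -0.04. The higher ones were the immediate early genes Fos, at 23.05 FPKM with Oct4 and SOX2 and 0.533 FPKM with the empty vector, and Egr1, at 176 FPKM with Oct4 and SOX2 and 31.6 FPKM with the empty vector. Slower feedback and ETS genes of the same list, named after their values were seen, were within 2-fold. Dusp6, an ERK phosphatase gene, was at 37.7 FPKM with Oct4 and SOX2 and 38.0 FPKM with the empty vector. Spry4, a Sprouty inhibitor gene, was at 29.9 FPKM with Oct4 and SOX2 and 39.0 FPKM with the empty vector, and Etv4 at 35.8 FPKM with Oct4 and SOX2 and 31.7 FPKM with the empty vector. Dusp4 was at 54.5 FPKM with Oct4 and SOX2 and 104.6 FPKM with the empty vector, 1.92-fold lower (1.85 to 1.99).

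**Figure D4:**
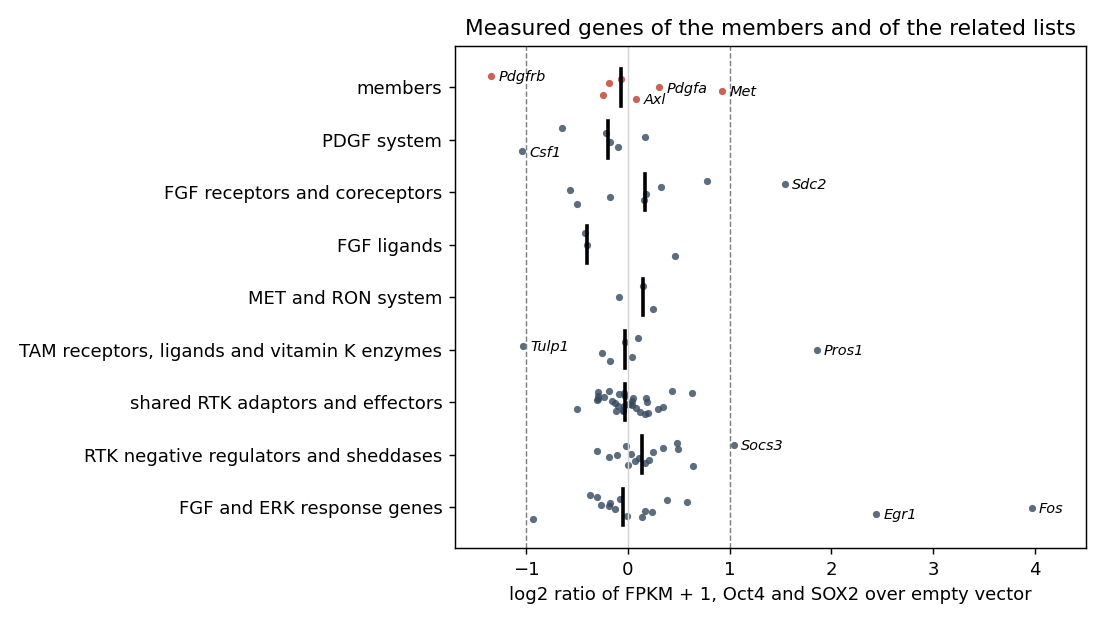
Log2 ratio on the FPKM + 1 scale, Oct4 and SOX2 over empty vector, for the measured genes of each list (points, 1 per gene; vertical jitter has no meaning), with black bars for list medians and dashed lines at 2-fold. Pdgfrb, Csf1 and Tulp1 lie below the lower line and Sdc2, Pros1, Socs3, Egr1 and Fos above the upper one, while the 33 adaptors and effectors stay between them. Of all 12401 measured genes 4.27% were at least 2-fold apart either way.

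Promoter letters were read because Fos and Egr1, whose products bind AP-1 and EGR motifs, and the introduced Oct4 and SOX2, which bind octamer and SOX motifs, differ between the cultures, and because TEAD factors are known to act on Axl. RefSeq windows on GRCm38.p6, from 250 bases before a gene's start to 50 after it, matched 7 of the 10 members with 8 windows. No window was found for Pdgfrb, Pdgfb and Fgfr1, so these genes were not searched for motifs. Motifs were searched on both strands, and a match is a description of these letters. AP-1 (TGANTCA) occurred in 1 member, Met, and in 7.81% of all 32851 windows. EGR (GCGGGGGCG or GCGTGGGCG) occurred in Fgf2 and in 3.47% of windows, SOX (ACAATG) in Pdgfa and in 12.6%, and TEAD (GGAATG) in Axl and Pdgfc and in 14.7%. The octamer ATGCAAAT (1.74% of windows) and the CRE TGACGTCA (1.79%) had no match in the windows of the 7 members searched. The windows of 30 bases around the matches of Met, the receptor nearest to 2-fold higher, of Fgf2 and Pdgfa, the ligands that were higher, and of Axl, the most expressed member, are shown 5′ to 3′ on the strand of the gene, with the match in capitals.
Met: ctgttgcccggcTGAGTCAcgggccgggca
Fgf2: cggcgcgcgggGCGGGGGCGcacggggccg
Pdgfa: caaacgcagcggACAATGcagtaacggggt
Axl: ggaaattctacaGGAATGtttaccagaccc
The Met window lies at chr6:17463891-17463920 on the plus strand, its match starting 54 bases before the RefSeq start, and the Fgf2 window at chr3:37348595-37348624 on the plus strand, 47 bases before. The Pdgfa window lies at chr5:138994397-138994426 on the minus strand, in 1 of the gene's 2 RefSeq windows, 133 bases before that start, and the Axl window at chr7:25788949-25788978 on the minus strand, 233 bases before. The RefSeq starts are not the gene starts given above: that of Met lies 157 bases downstream of the gene's first annotated base, that of Fgf2 307 bases and that of Pdgfa 3089 bases. The windows of these 3 genes thus lie inside the annotated gene and overlap exons of its GENCODE M21 transcripts, by 30 bases for Met and Fgf2 and 28 for Pdgfa, while the Axl window lies outside the gene. No difference in level is read from these matches.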

How the data were processed

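The authors deposited 1 table of FPKM values with gene lengths and positions for 54532 genes and 2 libraries. CASAVA, HISAT2, featureCounts 1.5.0-p3 and GRCm38 come from the submitters' processing notes. How FPKM was computed, the annotation release, strandedness and the treatment of multiple matches are not stated there. FPKM times length fell on whole reads for 100% of values within 0.001 of a read. In GENCODE M21, on the same build, members had the same coordinates and exon lengths.

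Ratios are log2 of FPKM + 1 for genes with at least 1 FPKM in either library (12401), and plain FPKM ratios with exact Clopper-Pearson 95% intervals from reads. Members and lists were chosen with earlier results of these data known. All members were named, with up to 3 genes each way at 2-fold per list, or the 2 most expressed, and neighbours of a member past 2-fold. With 2 libraries each gene has 1 ratio, so no genes of like pattern were sought. The receptor kinase list, motifs and reads-halved intervals were added after values were seen. Steps were tested on simulated data, drawn as independent Poisson reads. The simulation held no paired mates and no spread between cultures, so it says nothing on either. Python 3.11.15, numpy 2.4.6, scipy 1.17.1 and pandas 2.3.3 were used.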

Additional observations from a re-analysis of the deposited data

How the results depend on the processing

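No paired analysis was possible because each group holds 1 library. With a pseudocount of 0.1, genes at least 2-fold higher numbered 520 and lower 459, against 300 higher and 230 lower with a pseudocount of 1; the Pdgfrb log2 ratio was -1.49, and 2 genes of the PDGF list were lower. With a pseudocount of 5, 75 genes were higher and 56 lower, 0 members passed 2-fold, Pdgfrb stood at -0.94 and Met at 0.80, 0 genes of the TAM list were lower and 0 negative regulators were higher. With a filter of 5 FPKM, 145 of 8235 genes were higher and 121 lower, so fewer genes were counted than the 12401 of the main filter. The members' median was then 0.20 over 4 genes, and 0 TAM genes were lower. Among the 10276 measured protein-coding genes alone the counts were 143 higher and 110 lower. By intervals from reads halved, wholly beyond 2-fold, 143 genes were lower and 0 negative regulators were higher. The Axl log2 ratio of 0.08 became 0.12 with plain read totals and 0.12 without the 50 genes of the most reads. The 7 measured members kept their sign under each alternative that gave them a value. A changed pseudocount or filter cannot turn a sign, and the other alternatives shifted the scaling of the libraries only slightly. The kept signs are thus not read as support. Depth limits Pdgfb, Gas6 and Hgf, which had 10 reads or fewer. Cultures vary beyond counting error, and that spread was not measured.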

Other observations

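Other receptor tyrosine kinases, listed after the members' values were seen, were within 2-fold where they reached 1 FPKM. Of 57 genes 19 did so, 5 of them members, and the other 14 were all within 2-fold on the FPKM + 1 scale. Of all 12401 measured genes 4.27% were at least 2-fold apart on that scale, so none among 14 is near that share. Epha2, an ephrin receptor gene, was at place 2 in both libraries, at 96.1 FPKM with Oct4 and SOX2 and 104 FPKM with the empty vector. Ddr2, a collagen receptor gene, was at place 3 in both, at 61.5 FPKM with Oct4 and SOX2 and 72.5 FPKM with the empty vector. Ryk, a Wnt receptor gene, was at 16.1 FPKM with Oct4 and SOX2 and 19.3 FPKM with the empty vector, and Ptk7, of the same planar polarity pathways, at 4.49 FPKM with Oct4 and SOX2 and 6.72 FPKM with the empty vector. Of the 38 genes below 1 FPKM, 4 had a counting interval of the plain ratio wholly above 2-fold, none wholly below it, and 3 of the 4 held from reads halved. The share of all genes below 1 FPKM that meet this rule was not computed, so no shift of the receptor kinases is read from these counts. Epha3, an ephrin receptor gene, had 85 reads with Oct4 and SOX2 and 0 with the empty vector. With the empty vector set to a floor of 3 reads it was 28.4-fold higher, and the lower limit of the interval was 22.6, or 11.05 from reads halved. Ret, for the receptor of GDNF family ligands, had 196 reads with Oct4 and SOX2 and 59 with the empty vector, 3.33-fold higher (2.48 to 4.53, or 2.19 to 5.21 from reads halved). Tek, for the angiopoietin receptor and also on the endothelial marker list, had 86 reads with Oct4 and SOX2 and 17 with the empty vector, 5.07-fold higher (2.99 to 9.10, or 2.40 to 12.1 from reads halved). Csf1r, the receptor of Csf1, had 11 reads with Oct4 and SOX2 and 0 with the empty vector, and its lower limit from reads halved was 1.05.

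The following genes of the lists were named after their values were seen. Fgf20 had 26 reads with Oct4 and SOX2 and 0 with the empty vector. With the empty vector set to a floor of 3 reads it was 8.68-fold higher, and the lower limit of the interval was 6.57, or 3.05 from reads halved. Fgf21, a stress-induced metabolic hormone gene, had 2 reads with Oct4 and SOX2 and 27 with the empty vector, a plain ratio of 0.0742 (0.00855 to 0.295). Plat, for the tissue plasminogen activator that releases PDGF-C, was at 0.940 FPKM with Oct4 and SOX2 and 2.03 FPKM with the empty vector, 2.16-fold lower in plain FPKM (1.81 to 2.59). Adam10, for a protease that sheds receptors, was at 24.1 FPKM with Oct4 and SOX2 and 15.1 FPKM with the empty vector, 1.59-fold higher (1.51 to 1.67).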
